A study of Mus musculus with 21 samples.

Results

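A set of 6 probes whose signal was lower in the wound bed than in the wound edge late in healing, but not early, was followed through intact skin, bed and edge of mouse skin wounds. The 6 probes, out of 1687 on the array, were M200000014, M200001049, M200001053, M200000086, M200000223 and M200000299. They had been selected on the bed minus edge difference, which was near or above 0 at day 2 and strongly negative at days 6 and 15. The question asked of them was whether the edge was high or the bed was low.

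The samples were wound bed and wound edge taken 2, 6 and 15 days after wounding, and intact skin, with 3 arrays in each of the 7 groups. The animals were C57Bl/KS-db/+ females aged 9 to 13 weeks, heterozygous for db, a leptin receptor mutation. Back skin of 1.5 by 1.5 cm had been removed together with the panniculus carnosus, the thin muscle under mouse skin, and the wound had been covered with a polyurethane dressing. The bed is the tissue inside the removed area, and the edge is the 2 mm of skin at its border. Intact skin was shaved skin at day 0. Each time had 3 animals, and it is not stated if bed and edge were taken from 1 animal. The title of the series names heparan sulfate, a sugar chain of the cell surface and the matrix.

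As background, a skin wound is first closed off by a clot and an inflammatory infiltrate. The epidermis then grows in from the edge, while the bed fills with granulation tissue of fibroblasts, new vessels and leukocytes, which later becomes scar. The bed therefore starts without epidermis and hair follicles, and the edge holds both. The files do not pair the 6 probes with gene symbols, so no gene name, sequence or function is given for them, and no tissue label could be checked against marker genes. In whole tissue, fewer cells of a type and less RNA per cell cannot be told apart.

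Signals are log2 values of the spot brightness after background correction and quantile normalization. Detected means brighter than 95% of the blank and empty spots of the same array. The test covered the 974 of 1687 probes that were detected on 3 or more of the 21 arrays, and all 6 were among them. M200000014 passed this filter only through the edge arrays of days 6 and 15, where it is high, as it was detected on 1 other array. Counts are therefore also given, or given only, without it. None of the 6 was detected on all 21 arrays, as 323 probes were. From 487 to 934 probes were detected on each array, and the median spot was 1.25 to 2.43 times its local background. Arrays of 1 group correlated across tested probes with r from 0.770 to 0.982. Images were taken on 3 scan days. Of the edge, replicates 1 and 2 of every time were scanned on scan day 1 and replicate 3 on scan day 2. Of the bed, replicate 1 of every time was scanned on scan day 2 and replicates 2 and 3 on scan day 3. Intact replicate 1 was scanned on scan day 1 and the other 2 on scan day 2. With 3 arrays a group, precision is limited by their number.

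The 6 probes fell into 2 kinds. A first 4, M200001049, M200001053, M200000014 and M200000223, were bright in the edge at days 6 and 15, with each edge array brighter than every intact array at each time, while their bed arrays of days 6 and 15 overlapped with intact skin, except that those of M200001053 lay above it at day 6. The other 2, M200000086 and M200000299, had an edge signal near that of intact skin at all 3 times, and their bed arrays of days 6 and 15 all lay below all intact arrays. With centring by spot position, described below, their edge mean at day 6 lay further below intact skin. The description as late wound-edge transcripts thus fits the first 4 and not the other 2, whose edge did not stand clear above intact skin at any time. Lacking in the bed holds fully for M200000014 alone, which was undetected on all bed arrays of days 6 and 15. The plot of the values by array shows both kinds.

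**Figure D1:**
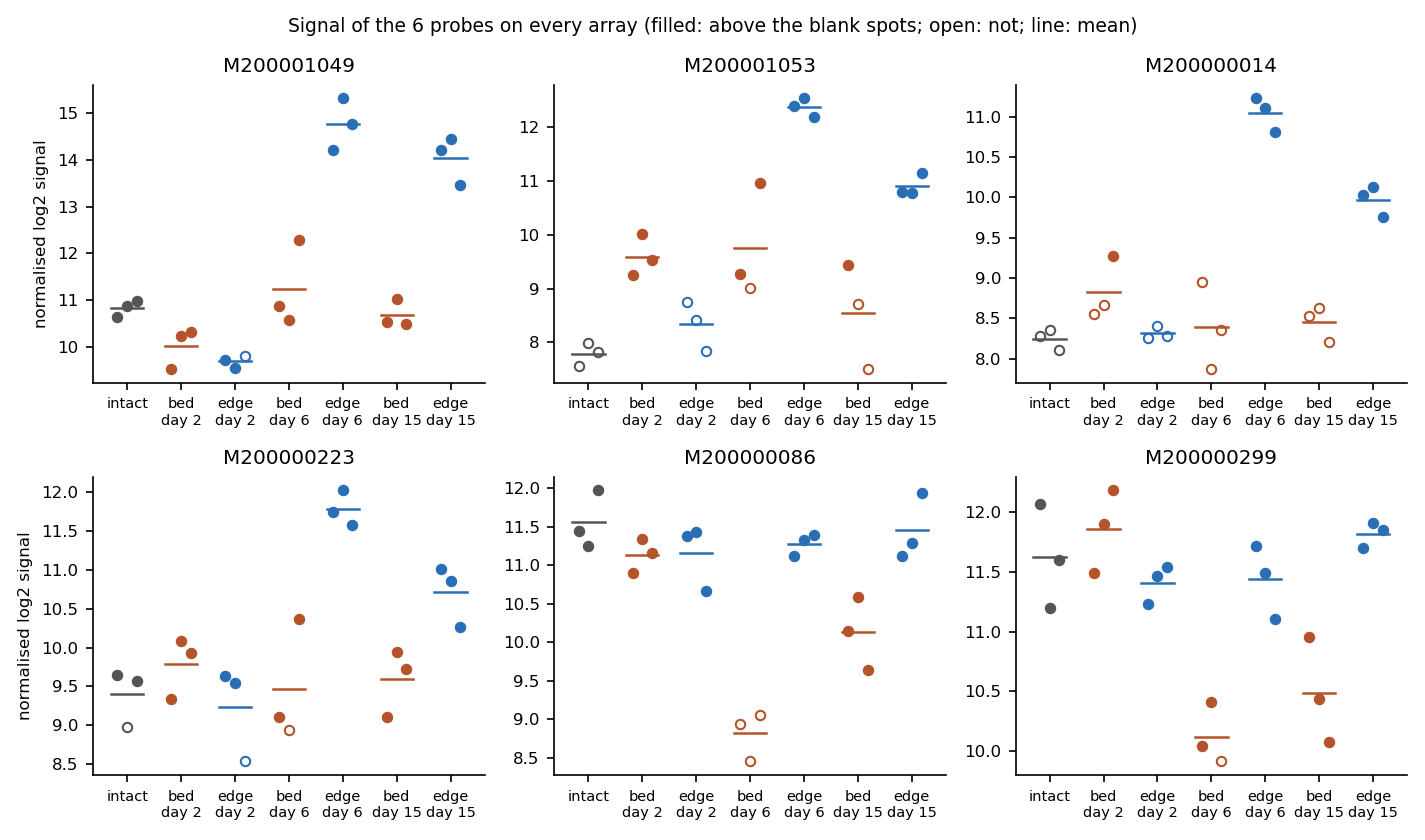
Normalised log2 signal of each probe (vertical axis, a separate scale per panel) on the 3 arrays of intact skin and of bed and edge at days 2, 6 and 15 (horizontal axis). Filled points are detected arrays, open points are not, and lines are group means. In the first 4 panels the edge at day 6 stands above all other groups, although for M200001049 its arrays overlap those of the edge at day 15, and in the last 2 panels the bed at days 6 and 15 stands below the rest.

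M200001049 had the widest swing. In the bed its log2 signal was 9.52, 10.23 and 10.32 at day 2, 10.88, 10.57 and 12.29 at day 6, and 10.53, 11.01 and 10.48 at day 15. In the edge it was 9.72, 9.55 and 9.80 at day 2, 14.21, 15.33 and 14.78 at day 6, and 14.21, 14.45 and 13.46 at day 15, against 10.63, 10.87 and 10.98 in intact skin. At day 2 every bed and every edge array lay below every intact array. At days 6 and 15 every edge array lay above every intact array, and the bed arrays overlapped with intact skin. The edge at day 6 averaged 14.77 ± 0.56 (SD, n = 3), against 10.83 ± 0.18 in intact skin (SD, n = 3), a difference of 3.94 on the log2 scale (SE 0.41, 15.4-fold). Against its own day 2 mean of 9.69 ± 0.13, the edge at day 6 stood 5.08 higher on the log2 scale (SE 0.41, 33.9-fold). The probe was not detected on edge day 2 replicate 3, although that array had the highest of the 3 edge values of day 2, 9.80. The size thus includes a signal at the level of blank spots. In order of the means came the edge at day 6, the edge at day 15, the bed at day 6, intact skin, the bed at day 15, the bed at day 2 and the edge at day 2. Within that order the arrays did not overlap between the edge at day 15 and the bed at day 6, nor between the bed at day 15 and the bed at day 2, and the remaining neighbours overlapped.

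Without any normalization, the scanner values show the edge arrays of day 6 brighter than the bed arrays of day 6 in all 6 probes. The mean brightness of the 8 spots of M200001049 ran from 20971 to 46097 on the edge arrays of day 6, or 28.8 to 113 times the local background. On the edge arrays of day 2 it ran from 709 to 1477, or 1.71 to 2.33 times the background. No spot of the 6 probes reached the scanner's upper limit, the brightest being a spot of M200001049 at 51051. In the bed at day 6 the brightness of M200000086 was 751 to 1010, or 1.32 to 2.33 times the background, against 2941 to 3795 in the edge, or 4.12 to 8.06 times. At day 15 the brightness separated bed from edge arrays for M200001049 alone. For M200000223, for example, it was 1142 to 2273 in the bed and 1505 to 1999 in the edge. Relative to the background, M200001053 separated too, at 1.16 to 2.74 times in the bed and 3.77 to 4.63 times in the edge. Over the 8 spots of a probe on 1 array, the median SD of the log2 values was between 0.18 for M200000223 and 0.37 for M200000014.

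**Figure D2:**
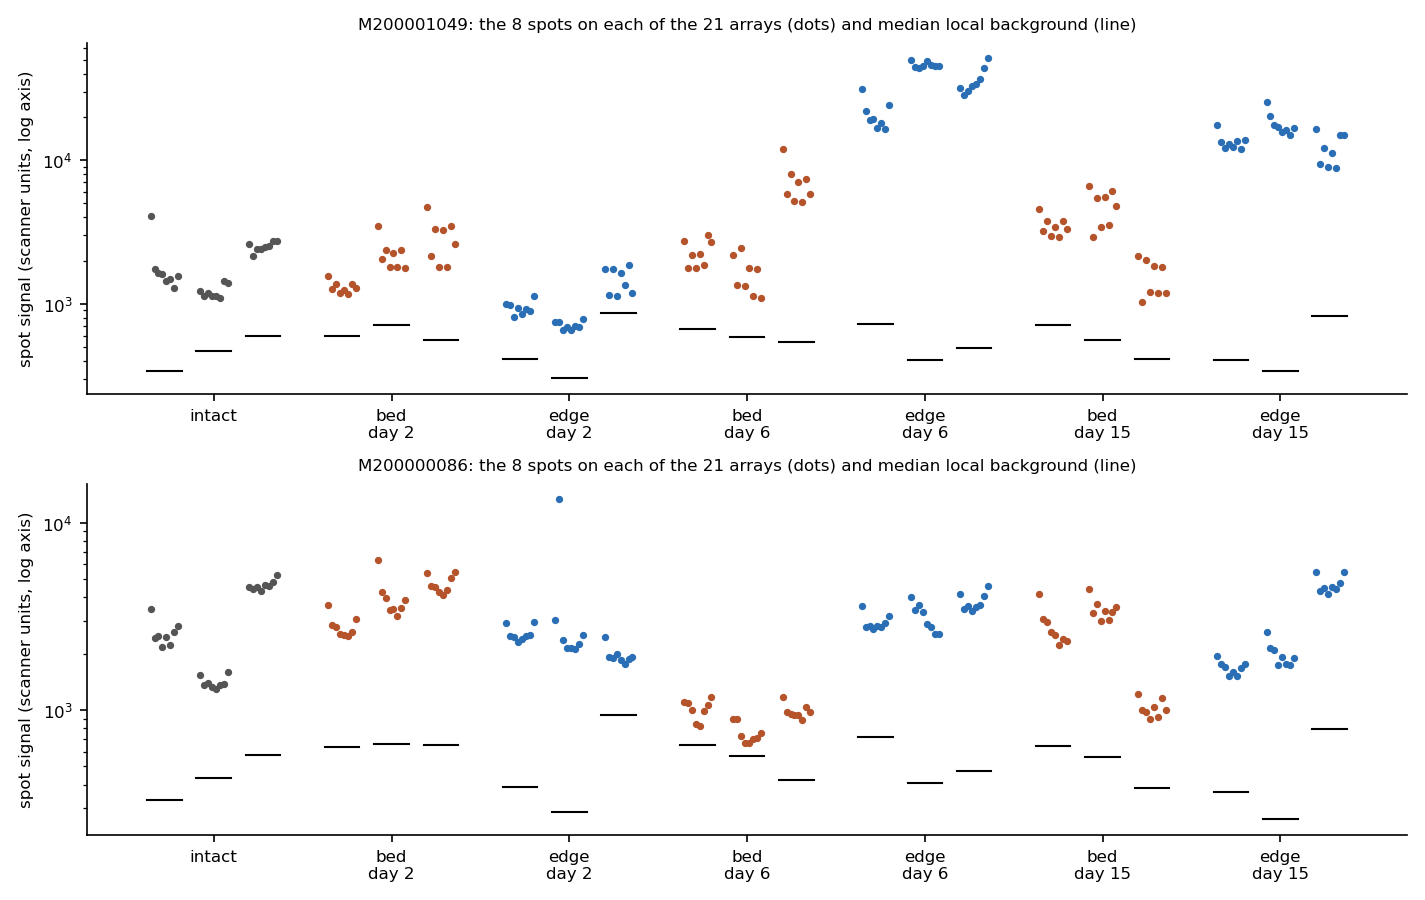
Brightness of single spots before normalization (vertical log axis, scanner units) for M200001049, above, and M200000086, below, with the arrays grouped along the horizontal axis. Each dot is 1 of the 8 spots on an array and each line is the median local background there. The M200001049 spots on the edge arrays of day 6 lie above all spots of the bed, of intact skin and of the edge at day 2, and the M200000086 spots in the bed at day 6 lie close to their background.

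M200001053 was not detected on any intact array or on any edge array of day 2. Its bed signal was 9.25, 10.01 and 9.53 at day 2, 9.28, 9.02 and 10.96 at day 6, and 9.43, 8.72 and 7.50 at day 15. Its edge signal was 8.75, 8.41 and 7.84 at day 2, 12.39, 12.54 and 12.19 at day 6, and 10.78, 10.78 and 11.14 at day 15, against 7.57, 7.98 and 7.82 in intact skin. The edge arrays of days 6 and 15 stood above all intact arrays, and the bed arrays of days 2 and 6 did so too. As a bound, which sets the brighter group's mean against the lowest signal that counts as detected on the dimmer group's arrays, the edge was at least 7.97-fold higher than intact skin at day 6. At day 15 it was at least 2.88-fold higher. For the bed at day 2 the bound was smaller, at least 1.16-fold higher than intact skin. At day 6 it was at least 1.30-fold, with the probe detected on 2 of 3 bed arrays, and this rests on bed day 6 replicate 3. Without that array the bed mean was 9.15, below the 9.38 that counts as detected in intact skin, and no bound can be given. In the bed at day 15 the probe was detected on 1 of 3 arrays. At day 2 the bed stood at least 1.25-fold above the edge, the one probe of the 6 detected on all bed arrays and no edge array then. The edge means at day 6 (12.37 ± 0.18) and day 15 (10.90 ± 0.21) came first in its order and did not overlap with each other, while all later neighbours in the order overlapped.

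M200000014 was detected on 7 of the 21 arrays, namely the 6 edge arrays of days 6 and 15 and 1 bed array of day 2. The bed had 8.56, 8.67 and 9.27 at day 2, 8.95, 7.87 and 8.36 at day 6, and 8.54, 8.63 and 8.21 at day 15. The edge had 8.26, 8.41 and 8.28 at day 2, 11.23, 11.10 and 10.80 at day 6, and 10.03, 10.13 and 9.76 at day 15, against 8.28, 8.35 and 8.11 in intact skin. The edge arrays of days 6 and 15 overlapped neither with each other nor with any other group, and the other 5 groups overlapped along their order. The edge was at least 3.18-fold higher than intact skin at day 6 and at least 1.51-fold higher at day 15. Against the bed of the same day, which was not detected, the edge was at least 2.50-fold higher at day 6 and at least 1.83-fold at day 15. Neither bed nor intact skin was detected at days 6 and 15, so whether the bed fell below intact skin could not be measured for this probe.

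M200000223 was detected on 18 of the 21 arrays, with 2 of 3 in the bed at day 6, in the edge at day 2 and in intact skin. Its bed signal was 9.33, 10.09 and 9.93 at day 2, 9.11, 8.93 and 10.37 at day 6, and 9.10, 9.95 and 9.72 at day 15. Its edge signal was 9.64, 9.55 and 8.53 at day 2, 11.75, 12.03 and 11.58 at day 6, and 11.01, 10.86 and 10.27 at day 15, against 9.65, 8.98 and 9.57 in intact skin. The edge means of day 6, 11.78 ± 0.23, and of day 15, 10.71 ± 0.39 (SD, n = 3 each), did not overlap with each other. The edge arrays of day 15 overlapped with bed day 6 replicate 3 and with no other array outside their group. The remaining 5 groups overlapped along the order, from 9.79 ± 0.40 in the bed at day 2 to 9.24 ± 0.62 in the edge at day 2. The edge stood above intact skin by 2.38 (log2) at day 6 (SE 0.40) and by 1.32 at day 15 (SE 0.40), and the bed by 0.07 and 0.19 (SE 0.40 each).

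In 3 of these 4 probes, 1 bed array of day 6 stood apart. Bed day 6 replicate 3 read 12.29, 10.96 and 10.37 for M200001049, M200001053 and M200000223, above the other 2 bed arrays of that day, and 8.36 for M200000014, between them. It was also the array with the fewest detected probes, 487. Without it, the difference between the bed at day 6 and day 2 was 0.70 for M200001049 (1.22 with it), -0.45 for M200001053 (0.16 with it) and -0.77 for M200000223 (-0.32 with it). The bed of day 6 then differed from intact skin by -0.11 for M200001049 (0.42 with that array), 1.35 for M200001053 (1.96 with it) and -0.38 for M200000223 (0.07 with it). The bed minus edge difference of M200001053 at day 6 was -3.23 without it and -2.62 with it.

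M200000086 behaved the other way round. In the bed it had 10.89, 11.34 and 11.16 at day 2, 8.94, 8.45 and 9.06 at day 6, and 10.15, 10.59 and 9.64 at day 15. The edge had 11.38, 11.43 and 10.66 at day 2, 11.12, 11.32 and 11.39 at day 6, and 11.12, 11.29 and 11.94 at day 15, against 11.44, 11.25 and 11.97 in intact skin. The probe was undetected on the 3 bed arrays of day 6 and detected on the other 18 arrays. It was at least 3.56-fold lower than intact skin, at least 2.93-fold lower than the edge of that day, and at least 2.65-fold lower than the bed at day 2. At day 15 the bed was detected again on all 3 arrays, at least 1.32-fold above day 6, and averaged 10.13 ± 0.47, against 11.45 ± 0.43 in the edge and 11.55 ± 0.37 in intact skin (SD, n = 3 each). The 2 late bed groups overlapped neither with each other nor with the rest, and the other 5 groups overlapped along their order. The edge minus intact difference was -0.40, -0.28 and -0.11 at days 2, 6 and 15 (SE 0.33 each).

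M200000299 had the same outline with a smaller swing. Its bed signal was 11.49, 11.90 and 12.18 at day 2, 10.04, 10.41 and 9.91 at day 6, where 2 of 3 arrays detected it, and 10.95, 10.44 and 10.07 at day 15. Its edge signal was 11.23, 11.46 and 11.54 at day 2, 11.71, 11.49 and 11.10 at day 6, and 11.69, 11.91 and 11.85 at day 15, against 12.06, 11.20 and 11.60 in intact skin. The bed arrays of days 6 and 15 overlapped with each other and lay below every array of the other 5 groups. The bed minus intact difference in log2 signal was -1.50 at day 6 (SE 0.31, 2.83-fold lower) and -1.13 at day 15 (SE 0.31, 2.19-fold lower). The edge differed from intact skin by -0.21, -0.18 and 0.20 at days 2, 6 and 15 (SE 0.31 each).

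Counted over the 6 probes, the edge lay above intact skin on all arrays in none at day 2, in 4 at day 6 and in 4 at day 15, or in 3 of 5 at the later times without M200000014. Over all tested probes the share was 8.83% at day 2, 12.1% at day 6 and 12.3% at day 15. The bed lay below intact skin on all arrays in 2 of 6 at day 6 and in 2 of 6 at day 15, where the share of all tested probes was 18.5% and 12.6%. It did so in 1 of 6 at day 2 (M200001049), against 15.7%. The bed minus edge differences that chose the probes ran from -0.03 for M200000086 to 1.26 for M200001053 at day 2. At day 6 they ran from -3.53 for M200001049 to -1.31 for M200000299, and at day 15 from -3.37 for M200001049 to -1.13 for M200000223. Among the 974 tested probes no other had a more negative difference at day 6 than M200001049, and 75 had one more negative than M200000299. At days 6 and 15 all bed arrays lay below all edge arrays in 6 of 6, which the choice favoured, and in 19.5% and 12.9% of the tested probes.

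The change between days 2 and 6 in each tissue separates the 2 kinds most plainly. In the bed it was 1.22, 0.16, -0.44 and -0.32 for M200001049, M200001053, M200000014 and M200000223, and -2.31 and -1.73 for M200000086 and M200000299 (log2 differences, SE 0.29 to 0.47). In the edge it was 5.08, 4.04, 2.73 and 2.54 for the first 4 and 0.12 and 0.03 for the other 2. The values of M200001053 and M200000014 in the edge and of M200000086 in the bed rest on groups without a detected array, and the bounds for these changes were at least 8.53-fold and 3.41-fold higher and at least 2.65-fold lower. All 3 edge arrays of day 6 lay above all 3 of day 2 in 4 of 6 probes (3 of 5 without M200000014), against 7.7% of all tested probes, and all bed arrays of day 6 lay below those of day 2 in 2 of 6, against 14% of all. By day 15 the edge still stood 4.35, 2.57, 1.66 and 1.48 above its day 2 level in the first 4. The bed differed from its own day 2 level by 0.65, -1.04, -0.37 and -0.20 in these, in the same order. In M200000086 and M200000299 the bed differed by -1.004 and -1.37. The bed mean of M200001053 thus fell about as far as that of M200000086 by day 15 (SE 0.47), although its bed arrays of days 2 and 15 overlapped.

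**Figure D3:**
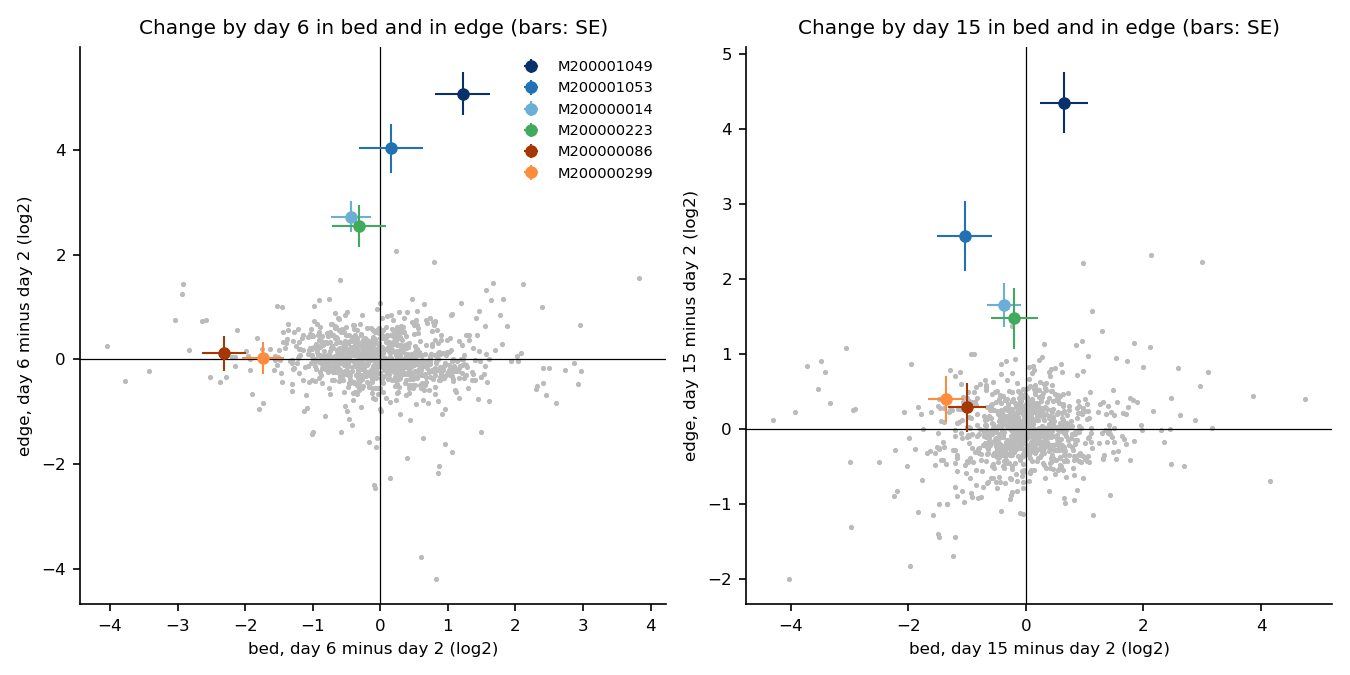
Log2 change from day 2 in the bed (horizontal axis) and in the edge (vertical axis), to day 6 on the left and to day 15 on the right. Grey points are the 974 tested probes, coloured points the 6 probes with SE bars. At day 6 the probes M200001049, M200001053, M200000014 and M200000223 lie high on the vertical axis with edge changes of 2.54 to 5.08, and M200000086 and M200000299 lie left of 0 on the horizontal axis at edge changes of 0.12 and 0.03.

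The choice of the probes used the difference between bed and edge, so that difference and the level of either tissue alone are given without a test. The mean of bed and edge at a time does not enter that difference, and it was tested against intact skin and between times, in 6 comparisons with limma over all 974 probes. The 2 quantities are independent only where bed and edge vary alike, and at day 6 the SD was 0.92 and 1.05 in the bed for M200001049 and M200001053, against 0.56 and 0.18 in the edge. If only the edge moved, this mean follows the edge's change at a smaller size, and if only the bed moved, it follows that of the bed. Between days 2 and 6 the mean changed in 5 of the 5 probes other than M200000014, 3 upward and 2 downward, at a limma adjusted p below 0.05. Of all tested probes 2.36% were called there, 1.54% upward and 0.821% downward. The probes were chosen on a difference that fell between these days, so bed, edge or both had to change. The mean then changes too unless the 2 shifts cancel. The choice left the direction of a call open. It also did not fix each call, as none of 8 other probes within the same limits, described below, was called. Such calls are still partly built into the choice. Shares of all tested probes, here and in the comparisons below, are therefore given for scale and not as independent support. The mean of M200001049 rose by 3.15 in log2 signal (SE 0.29, limma adjusted p = 6.6e-07), that of M200001053 by 2.10 (SE 0.33, adjusted p = 0.000661) and that of M200000223 by 1.11 (SE 0.28, adjusted p = 0.0423). The mean of M200000086 fell by 1.10 (SE 0.23, adjusted p = 0.0128) and that of M200000299 fell by 0.85 (SE 0.22, adjusted p = 0.0423). The median change of these 5 was 1.11, against -0.02 over all tested probes. The mean of M200000014 had a change of 1.15 (SE 0.21, adjusted p = 0.00312, and 0.00274 over all 1687 probes without a filter). That probe was detected on no edge array of day 2 and no bed array of day 6, so its p compares signals at the level of blank spots and is not counted. For M200001053 and M200000086 too, some group signals behind these sizes were not above the blank spots.

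**Figure D4:**
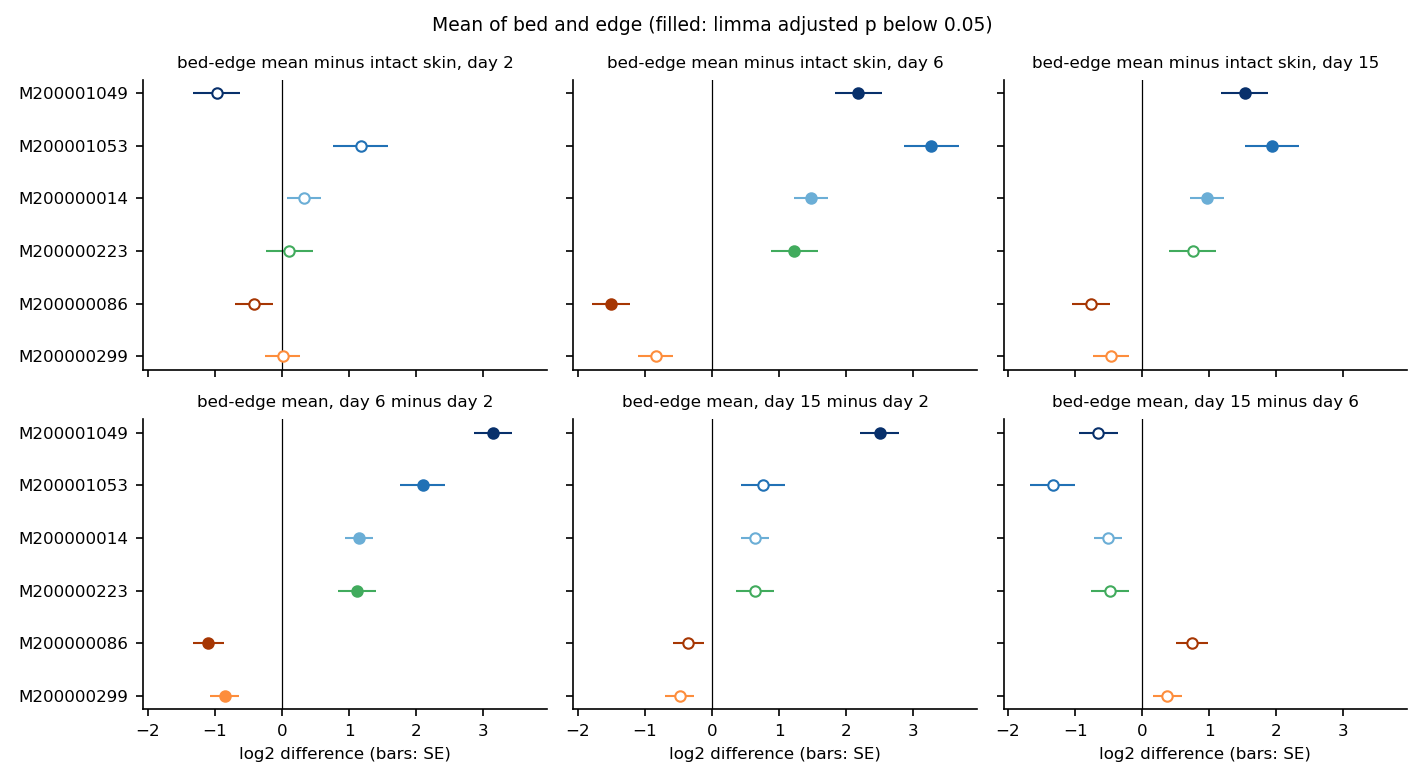
Log2 differences of the mean of bed and edge (horizontal axis, bars are SE) for each probe, in the 6 comparisons tested. Filled points passed a limma adjusted p of 0.05. Between days 2 and 6 all 6 points are filled, 4 to the right of 0, with M200000014 among them, and 2 to the left, and at day 2 against intact skin none is.

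Against intact skin, the mean of bed and edge at day 2 was called in none of the 6 probes with limma, where 4.41% of all tested probes were called and 147 had an unadjusted p below 0.05. The values nearest to the threshold were 1.17 for M200001053 (SE 0.40, adjusted p = 0.128) and -0.97 for M200001049 (SE 0.35, adjusted p = 0.155). Both had an unadjusted p below 0.05 (0.00878 and 0.0119), and both passed in a fit of the compared groups' arrays alone, at adjusted p = 0.0306 and 0.0428. At day 6 the mean was called in 4 of the 5 probes other than M200000014, against 5.95% of all tested probes (3.49% higher, 2.46% lower). It was higher than in intact skin for M200001053 by 3.27 (SE 0.40, adjusted p = 4.9e-05), for M200001049 by 2.18 (SE 0.35, adjusted p = 0.000461) and for M200000223 by 1.23 (SE 0.35, adjusted p = 0.0373). For M200000086 it was lower, with a difference of -1.51 (SE 0.28, adjusted p = 0.00174), and for M200000299 the difference of -0.84 (SE 0.27, adjusted p = 0.0653) did not pass. No intact array detected M200001053, and no bed array of day 6 detected M200000086. Their sizes and p at day 6, and those of M200001053 at day 2, thus include undetected groups, for which only the bounds given above hold.

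At day 15 the mean was called against intact skin in 3 of 6, all higher, or in 2 of 5 without M200000014, where 5.65% of all tested probes were called, 2.98% higher. These were M200001053 with 1.94 (SE 0.40, limma adjusted p = 0.00802), M200001049 with 1.53 (SE 0.35, adjusted p = 0.0152) and M200000014 with 0.97 (SE 0.26, adjusted p = 0.0273). Neither M200001053 nor M200000014 was detected on any intact array, and M200000014 was not detected in the bed at day 15 either. The sizes and p of both thus include undetected groups, for which only bounds hold. M200000223 had 0.75, M200000086 -0.77 and M200000299 -0.47, with adjusted p = 0.253, 0.136 and 0.369. Between days 2 and 15 the mean of M200001049 rose by 2.50 (SE 0.29, adjusted p = 1.55e-05) and no other of the 6 passed, against 3.08% called of all tested, 1.64% higher. Between days 6 and 15 limma called none of the 6, against 1.13% of all tested, where 101 probes had an unadjusted p below 0.05. Of the 6, M200001053 (-1.34, SE 0.33, adjusted p = 0.0514), M200000086 (0.74, SE 0.23, adjusted p = 0.171), M200000014 (-0.50, adjusted p = 0.41) and M200001049 (-0.65, adjusted p = 0.437) were among those. The first 4 probes had negative values and M200000086 and M200000299 positive ones in that comparison.

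The calls did not stand equally firm. Between days 2 and 6, M200001049 and M200001053 stayed past the threshold in all 35 other settings, among them each of the 21 arrays left out in turn. The same was seen for M200000014, whose p is not counted because it rests on signals at the level of blank spots. M200000086 lost its call in 4, of which 3 were other scalings (adjusted p = 0.0672, 0.0756 and 0.0681) and 1 was without edge day 2 replicate 1 (adjusted p = 0.055). M200000223 lost it in 19 settings and M200000299 in 24. Leaving out any 1 of 14 arrays ended the call for M200000223, at adjusted p from 0.0523 to 0.133 and log2 changes from 0.89 to 1.21, and any 1 of 15 arrays ended it for M200000299, at 0.0523 to 0.145 and changes from -0.94 to -0.77. The arrays whose loss left the call of M200000223 in place were intact replicate 2, bed day 6 replicates 1 and 2, the 3 bed arrays of day 15 and edge day 15 replicate 3. For M200000299 they were intact replicates 1 and 2, bed day 6 replicate 2, bed day 15 replicates 1 and 3 and edge day 6 replicate 1. Against intact skin at day 6, the calls of M200001049, M200001053 and M200000086 stood in all 35 settings, as did the uncounted one of M200000014. The call of M200000223 was lost in 12, among them without any of the 3 intact arrays, bed day 6 replicate 3, edge day 6 replicate 1 or 2, or edge day 15 replicate 2 (adjusted p from 0.0509 to 0.175). At day 15 the call of M200001049 was lost without any 1 intact array (adjusted p from 0.0509 to 0.0701) and that of M200001053 without intact replicate 3 (adjusted p = 0.0595). M200000014, which is not counted, fell short in 10 settings. Among them were the loss of any 1 intact array, bed day 15 replicate 2 or edge day 15 replicate 1 or 2 (limma adjusted p from 0.0557 to 0.173). The rest were the 75th percentile over detected probes (0.0744), only the groups compared (0.0509), the dimmest arrays left out (0.0999) and centring within print blocks (0.0879, difference 0.51).

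**Figure D5:**
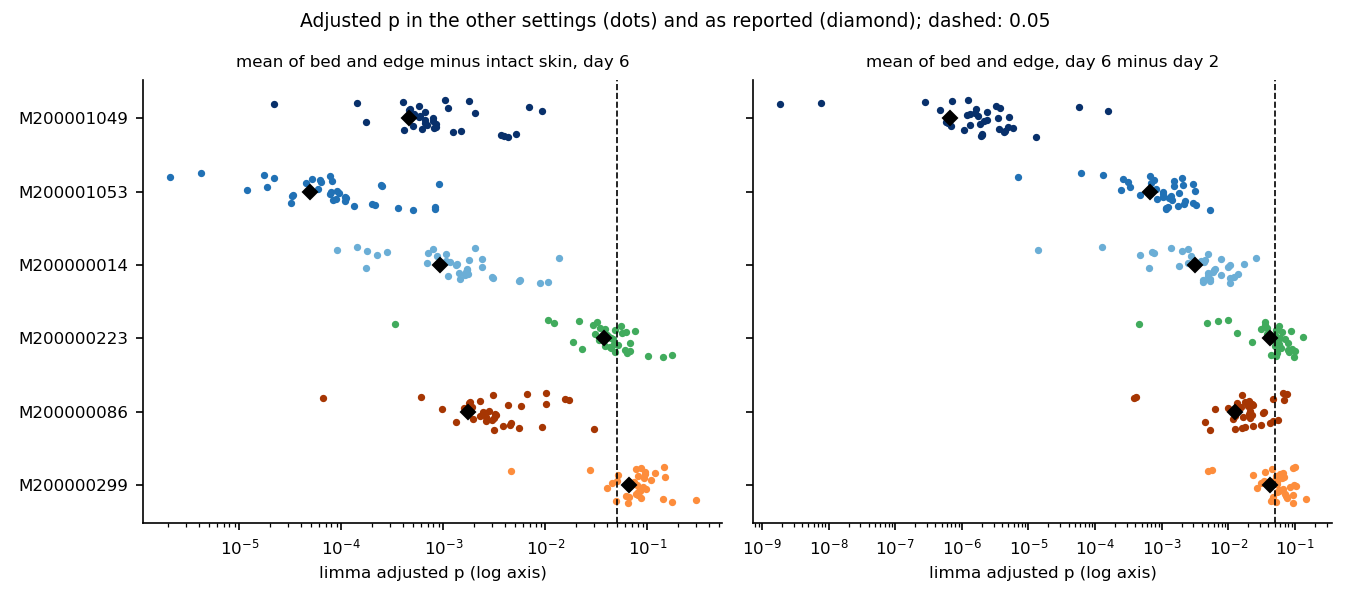
Limma adjusted p (horizontal log axis) of each probe for the mean of bed and edge at day 6 against intact skin, left, and between days 2 and 6, right. Dots are the 35 other settings, diamonds the reported fit and the dashed line 0.05. M200001049, M200001053 and M200000014 lie left of the line in every setting of both panels, and M200000223 and M200000299 lie on both sides of it. The p of M200000014 is shown but not counted.

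Bed and edge arrays shared only scan day 2, with 1 bed and 1 edge array at each time, and the edge arrays of days 2 and 15 there were dim (1.26 and 1.25 times the background). On that scan day the mean of bed and edge changed between days 2 and 6 by 3.17, 2.19, 1.46 and 1.41 for M200001049, M200001053, M200000014 and M200000223, and by -0.61 and -0.94 for M200000086 and M200000299. The edge alone changed by 4.98, 4.34, 2.52 and 3.05 in the first 4 there, and by 0.72 and -0.43 in the other 2. The bed minus edge difference of day 2 was -0.28 for M200001049 and -0.05 for M200000299 there, and above 0 for the others. On scan day 1, which held edge replicates 1 and 2, the edge changed over the same time by 5.14, 3.88, 2.84 and 2.29 in the first 4 and by -0.19 and 0.26 in the other 2. On scan day 3, which held bed replicates 2 and 3, the bed changed by 1.15, 0.22, -0.85 and -0.36 in the first 4 and by -2.50 and -1.88 in the other 2. With scan day as a block, M200000299 missed the threshold between days 2 and 6 (adjusted p = 0.0508) and M200000223 did so at day 6 against intact skin (adjusted p = 0.0564).

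The position of the spots on the slide moved with some of these values. M200000014 and M200000086 are printed in neighbouring rows of 1 block of the print, block row 8 and column 3. The other 16 tested probes of that block had a median bed minus edge difference of -0.88 at day 6, the lowest of the 48 block medians, which ran up to 1.56. Centring each array within its blocks, an alternative chosen after seeing the data, gave a bed minus edge difference at day 6 of -1.97 for M200000014 (-2.65 without it) and -1.77 for M200000086 (-2.46 without it). The change of M200000086 in the edge between days 2 and 6 was then -0.59 in place of 0.12, and that in the bed -2.15 in place of -2.31. The remaining 4 probes lie in 4 other blocks, whose other probes had medians from -0.41 to 0.15 at day 6. Their bed minus edge differences at day 6 moved too, to -1.60 for M200000223 (-2.31 without centring) and -1.62 for M200000299 (-1.31). For M200001049 the difference became -3.20 (-3.53) and for M200001053 -2.46 (-2.62). For M200001049 the edge change between days 2 and 6 was 5.00 after centring, and for M200001053 it was 3.47. The bed change of M200000223 was 0.52 in place of -0.32, and the edge change of M200000299 was -0.23 in place of 0.03. The edge minus intact difference at day 6 became -0.87 in place of -0.28 for M200000086. For M200000299 it became -0.51 in place of -0.18. Which part of these values comes from the position on the slide was not tested.

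Across the 21 arrays, the first 4 probes tracked each other with Pearson's r from 0.846 to 0.894, and M200000086 and M200000299 with r = 0.829. Between the 2 kinds r ran from 0.127 to 0.349. These arrays share groups, scan days and scaling, and the correlations are a description. The tested probes outside the 6 most like M200000086 were M200000939 (r = 0.890), M200001232 (r = 0.890) and M200000922 (r = 0.866). M200000939 was also nearest to M200000299 (r = 0.878), followed by M200001106 (r = 0.815) and M200001083 (r = 0.814). In the bed M200000939 changed by -2.16 between days 2 and 6 and in the edge by 0.04, as in the probes with a low bed. The 4 probes with a high edge had no neighbour as close. The nearest outside the 6 were M200000442 for M200000014 (r = 0.616), M200000576 for M200001049 (r = 0.585), M200000493 for M200001053 (r = 0.588) and M200000181 for M200000223 (r = 0.635). M200000576 had an edge change of 1.86 between days 2 and 6, but its bed lay below its edge at day 2 already (bed minus edge -1.45). Next nearest were M200000280 (r = 0.609) and M200000493 (r = 0.584) for M200000014, M200000728 (r = 0.566) and M200001403 (r = 0.557) for M200001049, M200000992 (r = 0.563) and M200000061 (r = 0.545) for M200001053, and Mm.12863 (r = 0.617) and M200000442 (r = 0.590) for M200000223.

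A further 8 tested probes met the limits that the 6 set in the bed minus edge differences, at or above -0.03 at day 2, at or below -1.31 at day 6 and at or below -1.13 at day 15. Nearest to these limits were M200000351 (0.87, -1.37 and -1.22 at days 2, 6 and 15), M200001200 (2.28, -1.51 and -1.39) and M200001516 (0.07, -1.32 and -1.62). Just outside lay M200000410 (0.66, -1.25 and -1.02), M200000695 (0.54, -1.49 and -1.01) and M200000922 (0.42, -1.34 and -0.95). In all of the first-named 8, the bed changed more than the edge between days 2 and 6. None of them passed limma's test of the mean of bed and edge (adjusted p from 0.11 to 0.706, with 3 at an unadjusted p below 0.05). In M200000351, for example, the bed changed by -1.82 and the edge by 0.41, in M200001200 by -3.04 and 0.75, and in M200001516 by -1.20 and 0.20. Within these limits, the edge changed more than the bed in M200001049, M200001053, M200000014 and M200000223 alone.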

How the data were processed

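For each of 21 mouse skin samples, 500 ng of total RNA was linearly amplified with Cy3 for a 1-colour array, per the labels' protocols. The authors deposited scanner intensity values for 13824 spots an array (8 per probe, 328 blank or empty), quantified from a 532 nm scan with image software of version 4.1, per the file headers. The deposited flag of each spot, from 0 to 3, is a value of another kind that no source used here explains. A score per probe, deposited by the authors, was rebuilt to within 0.0012. It is the log of the uncorrected mean signal without spots of flag 1, scaled per array (median 1, SD 0.2), so scale, centring and direction are known. Its column medians ran from 0.9994 to 1.0009.

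Signal means were corrected with local background medians by normexp (offset 50) in limma 3.58.1 and R 4.3.3. Spots of flag 1 were left out (9 of the 1008 spots of the 6 probes), the log2 values of a probe's spots were averaged, and arrays were quantile normalized, which hides a shift common to most probes. The model held the means of 7 groups and used all 21 arrays, with empirical Bayes and 14 residual degrees of freedom. Two-sided p-values were adjusted by Benjamini-Hochberg over 974 probes in each of the 6 comparisons tested. The mean of bed and edge is independent of their difference only where both vary alike. The fit was tested on simulated data. Since nothing says how separate the samples of a group were beyond 3 animals per time, the p-values speak only for the spread among these samples.

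The 6 probes, the comparisons and the rules were chosen with earlier results of these data known. Named beside the 6 are the 3 tested probes with the highest r for each and up to 3 nearest the limits that the 6 set. The alternatives were other scalings, background, spot and probe filters, the deposited scores, array weights, arrays left out, scan day and replicate number as a block, and centring within print blocks (added after seeing the data). Of 713 probes not tested, none was among the 6. Gene names were not used here, because the tables at hand do not hold these identifiers.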

Additional observations from a re-analysis of the deposited data

Results flagged for a closer look

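M200000299 at day 15 was flagged because the means of bed and edge lay on opposite sides of the mean of intact skin. The bed minus intact difference was -1.13 and the edge minus intact difference 0.20 on the log2 scale (SE 0.31 each), a gap of -1.33 between the tissues. All 3 bed arrays lay below and all 3 edge arrays lay above the mean of intact skin, but the edge arrays overlapped with the intact ones. The gap is the quantity by which the probe had been chosen, and the difference was not tested. In M200001049 the means of day 15 lay on opposite sides too, at -0.16 for the bed and 3.21 for the edge (SE 0.41 each).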

How the results depend on the processing

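Beside the reported fit, 35 settings gave values for the 6 probes. The filter for probes detected on all arrays kept 323 and none of the 6. Over all tested probes, array weights called 94, 106 and 90 against intact skin at days 2, 6 and 15, and 104, 88 and 23 for day 6 minus 2, 15 minus 2 and 15 minus 6 (reported: 43, 58, 55, 23, 30 and 11). Centring within print blocks gave 88, 151, 107, 68, 66 and 20, and the filter for all arrays 1, 10, 11, 2, 9 and 3, in the same order. For day 6 minus 2 the count was 15 and 13 with the 75th percentile over all probes and over probes detected on all arrays, 10 with the median scale, 13 without a filter, 14 with only the groups compared and 13 with the replicate block. Against intact skin it was 21 (day 2) and 30 (day 15) with the 75th percentile over detected probes, 18 and 26 without the 3 dimmest arrays, and 31 (day 15) with only the groups compared. It was 17 for day 15 minus 2 without the dimmest arrays and 3 for day 15 minus 6 with the median scale.

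Among the 6 probes, M200000014 included, 3 were called for day 6 minus 2 with the median scale. For day 15 minus 6, 1 was called with either 75th percentile scale, without background correction, with the deposited scores, with all spots and with array weights, and 2 with centring. For day 15 minus 2, 2 were called with the median scale and with centring and 3 with array weights. For day 2 against intact skin, 2 were called with only the groups compared, with array weights and with centring. The replicate block ended the calls of M200000223 (adjusted p = 0.0611 at day 6 against intact skin, 0.0643 for day 6 minus 2) and M200000299 (0.0643). Same-numbered samples deviated together in 13 of 63 pairs (r over 0.1, median -0.026). These pairs take in samples of different times, so they cannot show whether bed and edge of 1 time came from the same animals. With 1 array left out, 0 to 1, 4 to 6 and 0 to 3 of the 6 were called against intact skin at days 2, 6 and 15, and 3 to 6, 1 and 0 to 1 for day 6 minus 2, 15 minus 2 and 15 minus 6. The counts over all probes were 14 to 60, 30 to 78, 10 to 89, 9 to 30, 20 to 79 and 2 to 32.

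The uncalled day 2 difference from intact skin changed sign for M200000223 (reported 0.11), to -0.00101 with the 75th percentile over detected probes, -0.10 with scan day as a block and -0.10 without intact replicate 2. For M200000299 (reported 0.01) it became -0.0900, -0.0603, -0.23 and -0.15 with that percentile, array weights, the dimmest arrays left out and centring, and -0.20, -0.07, -0.00170 and -0.02 without intact replicate 2, bed day 2 replicate 3 and edge day 2 replicates 2 and 3. With 1 array left out it ran from -0.10 to 0.29 and from -0.20 to 0.23 for these 2 probes. The share of upward calls for day 6 minus 2, 65.2% as reported, was 86.7%, 84.6% and 80% with the 3 other scales and 48.4% with the deposited scores. For day 15 minus 6 it was 100% with the median scale, against 36.4% as reported. The median of all probes moved by over 0.1 in 3 comparisons, to -0.13 at day 2 with the 75th percentile over detected probes, and to -0.12 at day 6 and 0.12 for day 15 minus 6 with the median scale. The causes were not tested. Dim groups, undetected on all their arrays, limit M200000014, M200001053 and M200000086 to bounds.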
